A study of Mus musculus with 35 samples.

Results

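Lungs of mice ventilated gently for 3 h with added CO2 were compared with lungs of mice that breathed on their own. The members were all 5 arrays titled low stretch with hypercapnia and all 5 titled non-ventilated, chosen by title, 10 of the 35 arrays of the series. Each array held lung RNA of 1 adult male C57BL/6J mouse, an inbred laboratory strain, weighing 20 to 25 g. Low stretch hypercapnia meant anaesthesia, a tracheostomy and 3 h on a ventilator at a tidal volume of 10 mL/kg, 135 breaths per minute and 2 cmH2O of end-expiratory pressure, with an inspired CO2 fraction of 0.12 in room air. Low stretch normocapnia (5 arrays) had the same ventilator settings in room air alone, and non-ventilated mice breathed room air spontaneously. In all groups the lungs were lavaged before they were removed and snap frozen, so cells free in the airspaces had been partly washed out. Anaesthesia, surgery, ventilation and CO2 all set the hypercapnia group apart from the non-ventilated group, and their parts in a difference from it cannot be told apart. Among the settings that the labels give, the comparison with low stretch normocapnia varies inspired CO2 only. No inspired oxygen fraction is given for either low stretch group, and a difference in oxygen was not tested. The labels name no processing batch.

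Low stretch, or protective, ventilation uses breaths that do not overdistend the lung. Extra inspired CO2 raises CO2 and lowers pH in blood and tissue, which carbonic anhydrases, bicarbonate and proton transporters and proton-sensing receptors buffer or detect. Ventilation can bring neutrophils into the capillaries and airspaces of the lung, and anaesthesia with surgery raises circulating glucocorticoids. Endothelial cells of the lung answer changes in flow and stretch through transcription factors such as KLF2 and through vasoactive peptides such as endothelin.

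Genes of lung epithelium were high in both groups, as the tissue label has it. The surfactant gene Sftpc averaged 14.01 ± 0.05 log2 units in low stretch hypercapnia and 14.04 ± 0.02 in non-ventilated lungs (deposited log2 signal, SD, n = 5 each, as for all group means here). Scgb1a1, the club cell secretory protein, averaged 13.75 ± 0.06 in low stretch hypercapnia and 13.76 ± 0.04 in non-ventilated lungs. Ager, a marker of alveolar type 1 cells, averaged 12.91 ± 0.07 in low stretch hypercapnia and 12.95 ± 0.05 in non-ventilated lungs. None of these 3 genes passed the test.

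Of 19938 genes, 2993 (15%) passed a Benjamini-Hochberg adjusted p of 0.05 in the limma fit. Of these, 1594 (7.99% of all genes) were higher in low stretch hypercapnia and 1399 (7.02%) were lower. Rises reached further than falls, since 117 genes were up and 26 down by 1 log2 unit or more. The median change over all genes was 0.0041 on the log2 scale. All 5 hypercapnia arrays lay above every non-ventilated array for 988 genes (4.96%) and below every one for 787 genes (3.95%). A fit to the 10 arrays alone called fewer genes, 1429 in all, with 809 higher and 620 lower.

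Of the 5 low stretch hypercapnia arrays, replicate 1 stood apart, with the highest neutrophil and inflammatory signals of its group. Without it 2170 genes passed, 1291 higher and 879 lower, so the count of lower genes depended on that animal by more than 1.5 times. Among non-ventilated arrays, replicate 5 had the highest neutrophil signals. Values without hypercapnia replicate 1 stand beside each group of genes that it moved.

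**Figure D1:**
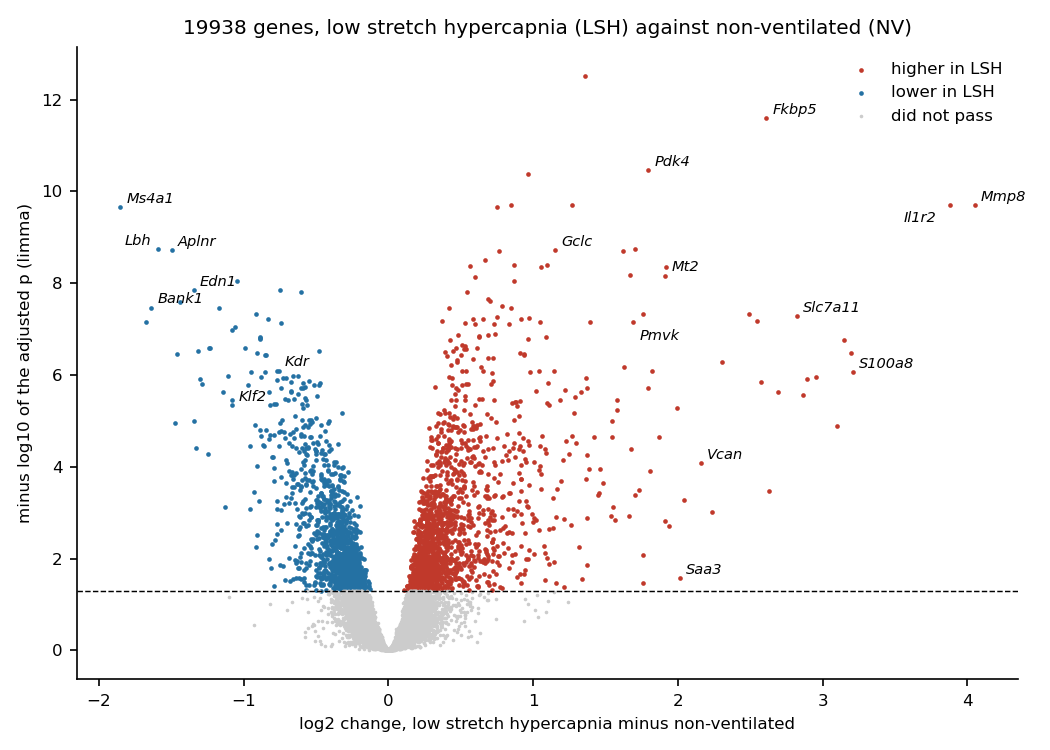
Log2 change of every gene in low stretch hypercapnia (LSH) against non-ventilated lungs (NV) on the x axis, and minus log10 of the limma adjusted p on the y axis, with the threshold of 0.05 as a dashed line. Red points (1594 genes) were higher in LSH and blue points (1399 genes) lower, and the rises extend to 4.05 log2 units while the falls end at -1.85.

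Neutrophil genes made up most of the largest rises. Mmp8, which encodes neutrophil collagenase, read 11.98, 10.59, 10.54, 10.74 and 10.67 log2 units in the 5 hypercapnia arrays, against 6.87, 6.31, 6.09, 6.36 and 8.65 in the 5 non-ventilated arrays. The groups did not overlap, and the highest array of each group, hypercapnia replicate 1 and non-ventilated replicate 5, stood well above the rest of its group. The rise was 16.6-fold (log2 change 4.05 ± 0.34, SE, adjusted p 2.02e-10), and its log2 size was 3.78 without hypercapnia replicate 1. Il1r2, a decoy receptor that binds interleukin-1 without signalling, rose 14.7-fold, to a mean of 10.55 ± 0.70 in low stretch hypercapnia against 6.67 ± 0.66 in non-ventilated lungs. S100a8 (9.25-fold) and S100a9 (7.43-fold), the subunits of the calcium-binding protein calprotectin, rose as well. Retnlg, a resistin-like protein of granulocytes, rose 9.15-fold, and Cxcr2, the receptor for neutrophil-attracting CXC chemokines, rose 7.74-fold. Clec4d (8.84-fold) and Clec4e (8.55-fold) encode C-type lectin receptors of myeloid cells for microbial glycolipids.

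Of 18 measured neutrophil markers 17 rose and none fell, with a median change of 2.27, and 16 rose without hypercapnia replicate 1, with a median of 1.91. The mean of the list ranged from 9.19 to 10.78 over the hypercapnia arrays, against 6.78 to 8.76 over the non-ventilated arrays. Wfdc21 was the marker that did not pass (0.52, adjusted p 0.0778). Of 10 genes for the granules that neutrophils fill while still in the bone marrow, 1 rose and none fell, with a median of 0.13. That count is close to the 7.99% of all genes that were higher. The most specific of these 10 genes stayed low. Elane, neutrophil elastase, averaged 5.89 ± 0.05 in low stretch hypercapnia and 5.85 ± 0.23 in non-ventilated lungs. Mpo, myeloperoxidase, averaged 5.94 ± 0.27 in low stretch hypercapnia and 5.85 ± 0.31 in non-ventilated lungs. The member that rose, Ngp (1.76, adjusted p 0.0342), read 9.97 in hypercapnia replicate 1 and 6.78 to 7.38 in the other 4. It no longer passed without that array, nor without non-ventilated replicate 1, 2, 3 or 5. In whole lung RNA, more cells of a type and more RNA per cell cannot be told apart, here and for every cell type below.

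Another 5 genes were among the largest rises. Ifitm6 rose 7.28-fold, Ccr1, a receptor for CC chemokines of myeloid cells, 6.45-fold, Slfn4, one of the neutrophil markers, 6.19-fold, Il1f9, an interleukin-1 family cytokine also called interleukin-36 gamma, 5.96-fold, and the retinol dehydrogenase gene Dhrs9 5.84-fold. Ampd3, an AMP deaminase, had the smallest adjusted p of all genes (3.02e-13) at 2.56-fold, and was singled out after its values were seen. The remaining largest rises were Slc7a11 and Fkbp5, described below.

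Of 13 Toll-like receptor genes and their partners 8 rose and none fell, with a median of 0.68. Tlr13 and Tlr8, endosomal sensors of RNA, rose by 1.80 and 1.39, Tlr6 by 0.92 and Tlr7 by 0.84. Cd14, the co-receptor for lipopolysaccharide, rose by 1.09, and the adaptor gene Myd88 by 0.68. Tlr2 had all 5 hypercapnia arrays above the non-ventilated ones but did not pass (0.74, adjusted p 0.0749). Without hypercapnia replicate 1, 7 of the 13 passed. These receptors are expressed by neutrophils and other myeloid cells whose markers moved with them, and the part of those cells was not tested.

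Inflammatory signalling genes moved unevenly. In the interleukin-1 group 5 of 14 genes rose and 1 fell, with a median of 0.44. Il1b, interleukin-1 beta, rose 3.17-fold by the test, yet its arrays overlapped: 9.85, 9.12, 9.17, 9.17 and 9.19 in low stretch hypercapnia, against 7.90, 7.12, 6.80, 6.86 and 9.50 in non-ventilated lungs. Only non-ventilated replicate 5, the array highest in neutrophil genes, lay in the range of the ventilated animals. Il18rap, a subunit of the interleukin-18 receptor, rose by 1.06. Casp4, the inflammatory caspase also known as caspase-11, rose by 0.94 (adjusted p 0.0216) but not without hypercapnia replicate 1 (0.66, adjusted p 0.128) or without non-ventilated replicate 4. Il33, an alarmin stored in nuclei of epithelial and stromal cells, fell by 0.74, with every ventilated animal below every non-ventilated one. Without hypercapnia replicate 1, 3 of the 14 rose and 1 fell. Il1r2, one of the genes that rose, was also counted with the neutrophil markers, and Il1b with the cytokines and chemokines below.

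Of 18 genes of the interleukin-6 family and STAT3 response 10 rose and none fell, with a median of 0.42, and 7 rose without hypercapnia replicate 1. Socs3, the feedback inhibitor of interleukin-6 receptor signalling, read 10.50, 9.11, 9.11, 9.39 and 8.76 in low stretch hypercapnia, against 7.82, 7.87, 7.78, 7.73 and 7.75 in non-ventilated lungs. Every ventilated animal was higher, in a group far more scattered than the non-ventilated one, and the rise was 2.99-fold (adjusted p 5.91e-06). Il4ra, a receptor subunit for interleukin-4 and interleukin-13, rose by 0.95 and Lrg1, a secreted leucine-rich glycoprotein, by 0.86. Osmr, the oncostatin M receptor, rose by 0.69 and the kinase gene Pim1 by 0.76, and neither passed without hypercapnia replicate 1 (adjusted p 0.0526 and 0.0508). The cytokine genes did not pass: Il6 was near the lower end of the signal range at 4.64 ± 0.34 in low stretch hypercapnia and 4.33 ± 0.15 in non-ventilated lungs, and Osm changed by 0.51 (adjusted p 0.119).

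Among 23 cytokines and chemokines 1 rose and 2 fell, with a median of 0.13, a share close to that of all genes. Cxcl12, a chemokine of stromal and endothelial cells that holds CXCR4-positive leukocytes, fell by 0.69, and Csf2, which encodes the macrophage growth factor GM-CSF, by 0.46. Cxcl2, an attractant of neutrophils, read 8.63 in hypercapnia replicate 1 and 6.35 to 6.90 in the other 4, against 5.65 to 6.20 in non-ventilated lungs. All 5 lay above the non-ventilated arrays, yet the change of 1.24 did not pass (adjusted p 0.0875). In Cxcl10 and Ccl3 it was likewise hypercapnia replicate 1 that was high, at 9.50 against at most 7.67 in the rest of its group, and at 9.20 against at most 7.35.

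Acute phase genes rose in 5 of 17 cases and none fell, with a median of 0.19. The most scattered was Saa3, serum amyloid A3, at 11, 8.46, 7.66, 7.79 and 6.72 in low stretch hypercapnia, against 6.77, 6.68, 6.35, 5.83 and 5.93 in non-ventilated lungs. The lowest hypercapnia array reached into the range of the non-ventilated animals, and the 4.04-fold rise (adjusted p 0.027) did not pass without hypercapnia replicate 1 (adjusted p 0.16), or without non-ventilated replicate 4 or 5. Serpina3n, a protease inhibitor, rose by 0.92 (0.74 without hypercapnia replicate 1) and Lcn2, lipocalin 2, which binds bacterial iron carriers, by 0.62 (0.47 without it). Both groups were apart in each of these genes. The count was 3 without hypercapnia replicate 1 and 3 without non-ventilated replicate 5. Some of the 5 were also counted in other lists, such as Cd14 with the Toll-like receptors and Lcn2 with the heme and iron genes.

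NF-kappaB feedback genes were higher in 5 of 15 cases and lower in 1, with a median of 0.18, and 4 were higher and none lower without hypercapnia replicate 1. Nfkbia, the inhibitor that NF-kappaB itself induces, rose by 0.48, Birc3 by 0.62 and Bcl3 by 0.97. Bcl3 was also counted in the STAT3 group and Nfkbia among the glucocorticoid receptor targets below. Of 17 interferon response genes 1 rose, close to the 7.99% of all genes, with a median of 0.31. That gene, Oas2 (0.91, adjusted p 0.0347), did not pass without hypercapnia replicate 1 or without non-ventilated replicate 2, 3 or 4. Rsad2, which encodes viperin, changed by 0.75 and did not pass (adjusted p 0.213).

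B cell genes moved the opposite way. Ms4a1, which encodes the B cell surface protein CD20, read 6.27, 6.39, 6.69, 6.80 and 6.20 in low stretch hypercapnia, against 8.71, 8.02, 8.39, 8.09 and 8.40 in non-ventilated lungs. The groups were more than 1 log2 unit apart, and the fall was 3.61-fold (log2 change -1.85 ± 0.16, SE, adjusted p 2.19e-10), the largest fall of all genes. Fcer2a, the low-affinity IgE receptor CD23, fell 3.19-fold and Bank1, a B cell scaffold protein, 3.11-fold. Cd79a (2.76-fold) and Cd79b (2.25-fold), which carry the signal of the B cell receptor, fell too, and Cr2, complement receptor 2, fell 2.71-fold. Of 17 B cell markers 16 fell and none rose, with a median of -0.95, and 15 fell without hypercapnia replicate 1. Vpreb3 was the marker that did not pass (-0.35). H2-Ob, an MHC class II chain that modulates peptide loading in B cells, fell by 1.23, and Ciita, the switch of the class II genes, by 0.64. In the MHC class II and co-stimulation group 3 of 12 genes fell and 1 rose.

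Some T and natural killer cell genes fell. Of 14 T cell markers 5 fell and none rose, with a median of -0.12, and 3 fell without hypercapnia replicate 1, without hypercapnia replicate 3 or without non-ventilated replicate 1. Cd2, an adhesion receptor, fell by 0.65 with no overlap, Ccr7, the receptor that guides cells to lymph nodes, by 0.57, and Cd3g by 0.57, a call lost in each of these 3 fits. Of 10 natural killer markers 3 fell and none rose, with 1 left without hypercapnia replicate 5. Ncr1, the activating receptor NKp46, read 5.67, 5.53, 5.98, 6.20 and 5.20 in low stretch hypercapnia, against 6.92, 7.20, 7.15, 6.99 and 7.01 in non-ventilated lungs. Every ventilated animal lay below every non-ventilated one, and the fall was 2.53-fold (adjusted p 1.01e-05). Nkg7, a granule protein, fell by 0.57 (adjusted p 0.0535 without hypercapnia replicate 5), and Klrb1c by 0.46 (adjusted p 0.0274). Klrb1c is the NK1.1 antigen, and its call was lost without hypercapnia replicate 2, 3 or 5 and without non-ventilated replicate 2 or 5. The granzyme gene Gzma did not pass (-0.55, adjusted p 0.149).

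Of 14 monocyte and macrophage markers 3 rose, 1 fell and 10 did not pass, with a median of 0.10. Of all genes 7.99% were higher and 7.02% lower, so the single fall is close to that share. Vcan, a proteoglycan that classical monocytes express, rose 4.46-fold, to 9.84 ± 0.82 in low stretch hypercapnia against 7.69 ± 0.36 in non-ventilated lungs. F13a1, the coagulation factor XIII A chain, rose 2.96-fold and Fcgr4, an activating IgG receptor, 2.46-fold. Cx3cr1, the fractalkine receptor of patrolling monocytes and tissue macrophages, fell 1.7-fold with no overlap, at 7.12 to 7.47 in low stretch hypercapnia and 7.55 to 8.41 in non-ventilated lungs. Ccr2, the receptor that draws monocytes to tissue, missed the threshold (1.15, adjusted p 0.0529). None of 11 alveolar macrophage markers passed the limma test, Marco and Siglecf among them, with 3 at an unadjusted p under 0.05 and changes from -0.39 to 0.30. None of 9 platelet markers (2 at an unadjusted p under 0.05) and none of 4 red cell markers (0) passed. The 9 platelet changes were all positive, from 0.11 to 0.41, and Tubb1, a platelet tubulin, had all 5 hypercapnia arrays above the non-ventilated ones without passing (adjusted p 0.175). Of 10 dendritic cell markers 1 fell, Xcr1 (-0.38), and of 9 mast cell markers 1 fell, beside 7.02% of all genes. The latter was the stem cell factor receptor gene Kit (-0.26, adjusted p 0.0246), a call lost without hypercapnia replicate 1 or non-ventilated replicate 2 or 3.

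**Figure D2:**
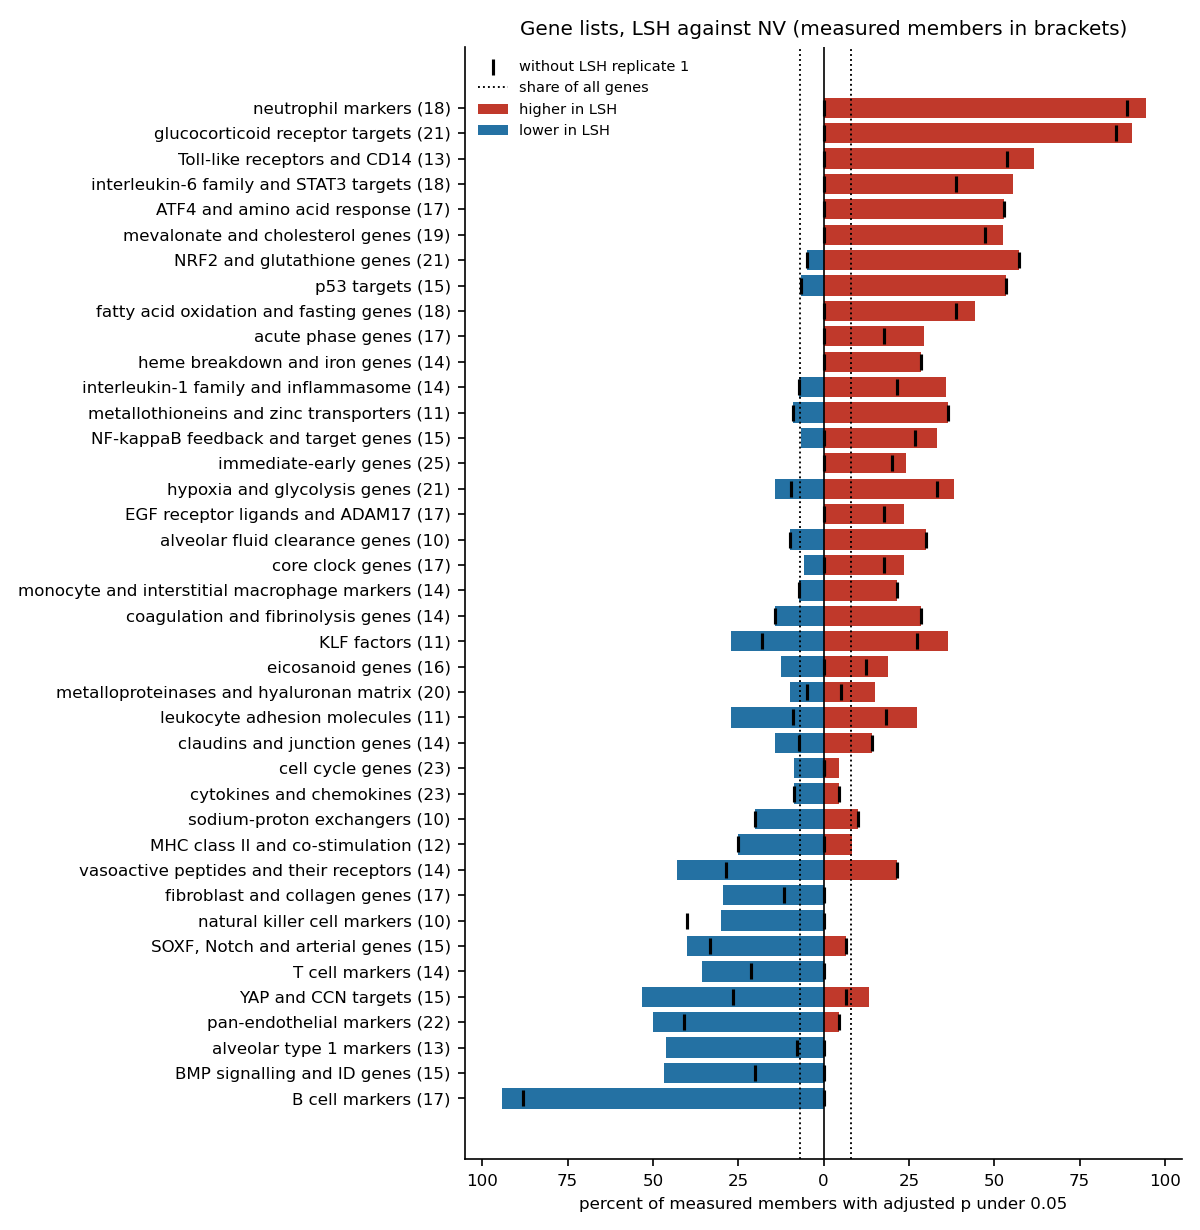
Percent of measured members of each gene list that passed the limma test in low stretch hypercapnia (LSH) against non-ventilated lungs (NV), higher to the right in red and lower to the left in blue, for the lists with at least 3 calls. Dotted lines give the shares of all genes (7.99% higher, 7.02% lower) and black ticks the lists' shares without LSH replicate 1. Neutrophil markers (17 of 18 higher) and B cell markers (16 of 17 lower) form the 2 ends.

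Endothelial genes fell together in part. Of 22 pan-endothelial markers 11 fell and 1 rose, with a median of -0.20, and 9 fell without hypercapnia replicate 1. Kdr, the main VEGF receptor, read 10.49, 11.08, 10.86, 11.14 and 10.91 in low stretch hypercapnia, against 11.70, 11.78, 11.67, 11.45 and 11.66 in non-ventilated lungs. All ventilated animals were lower, hypercapnia replicate 1 the lowest, and the fall was 1.69-fold (adjusted p 8.05e-07). Egfl7, a secreted endothelial protein, fell 1.8-fold, the transcription factor genes Sox7 1.76-fold and Sox18 1.67-fold, and the adhesion molecule gene Icam2 1.46-fold. Lyve1, a lymphatic marker, rose by 0.36 (adjusted p 0.0163), though not without non-ventilated replicate 1 or 2. Emcn, a venous and capillary sialomucin, did not pass (-0.21).

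Arterial genes fell in 6 of 15 cases and rose in 1, with a median of -0.19. Gja5, the arterial gap junction protein connexin 40, fell 2.49-fold, at 7.63 to 8.29 in low stretch hypercapnia and 8.92 to 9.78 in non-ventilated lungs, with a wide gap between groups. Sox17, an arterial transcription factor, fell 1.56-fold, Dll4, a Notch ligand of arteries and sprouting vessels, 1.53-fold and Nrp1, a co-receptor for VEGF, 1.4-fold. Notch1, the receptor itself, went the other way by 0.30. Myct1, an endothelial membrane protein, fell 2.51-fold, with hypercapnia replicate 1 lowest at 7.08 and the other 4 between 8.10 and 8.54, against 9.02 to 9.64 in non-ventilated lungs.

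Vasoactive peptides and receptors fell in 6 of 14 cases and rose in 3, with a median of -0.19. Edn1, which encodes the vasoconstrictor endothelin 1, read 8.14, 8.78, 8.66, 9.14 and 9.04 in low stretch hypercapnia, against 9.98, 9.87, 10.16, 10.39 and 10.07 in non-ventilated lungs. The highest ventilated animal was well below the lowest non-ventilated one, and the fall was 2.54-fold (adjusted p 1.44e-08). Aplnr, the endothelial receptor for the vasodilator apelin, fell 2.82-fold, at 8.12 ± 0.23 in low stretch hypercapnia and 9.61 ± 0.23 in non-ventilated lungs. Calcrl, the shared receptor for adrenomedullin and CGRP, fell 1.52-fold. Ramp3, an accessory protein that turns that receptor towards adrenomedullin, rose 1.61-fold, and Adm, adrenomedullin, rose 1.62-fold, with less certainty (adjusted p 0.0384) since non-ventilated arrays at 8.48 and 8.60 overlapped the ventilated range and the call was lost without any 1 of hypercapnia replicates 2 to 5 or non-ventilated replicates 2 to 4. Nos3, endothelial nitric oxide synthase, did not pass (-0.04). Without hypercapnia replicate 1 the counts were 4 lower and 3 higher.

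KLF transcription factors went both ways, 4 of 11 higher and 3 lower. Klf2, which laminar flow induces in endothelium, was tight in low stretch hypercapnia at 9.45, 9.37, 9.49, 9.33 and 9.39, against 10.43, 10.45, 10.67, 10.81 and 10.07 in non-ventilated lungs. It fell 2.11-fold with no overlap (adjusted p 4.46e-06). Klf4, a close relative that flow also induces, fell 1.52-fold. Klf15 and Klf9, both induced by the glucocorticoid receptor, rose 1.74-fold and 1.45-fold, again with no overlap.

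BMP and ID genes fell in 7 of 15 cases and none rose, with a median of -0.28. Only 3 of these calls were left without hypercapnia replicate 1. Tmem100, a membrane protein of lung endothelium induced by BMP receptor ALK1, fell 2.11-fold and Id4, an inhibitor of basic helix-loop-helix factors, 1.71-fold, with no overlap. Smad6 and Smad7, the inhibitory SMADs, fell by 0.58 and 0.51, and neither passed without hypercapnia replicate 1 (adjusted p 0.163 and 0.0562).

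Targets of YAP, a transcriptional co-activator that responds to cell tension, fell in 8 of 15 cases and rose in 2, with a median of -0.28. Counts were 4 lower and 1 higher without hypercapnia replicate 1 and 5 lower without non-ventilated replicate 1. Tgfb2, transforming growth factor beta 2, fell 1.54-fold with no overlap. Ccn2, connective tissue growth factor, overlapped between the groups at 9.80 to 10.82 in low stretch hypercapnia and 10.66 to 11.68 in non-ventilated lungs. Its fall of 0.73 did not pass without hypercapnia replicate 1 or non-ventilated replicate 3. Ankrd1 fell by 0.81 and did not pass without hypercapnia replicate 1 or non-ventilated replicate 1. Thbs1, thrombospondin 1, rose 2.39-fold and was the most scattered of these genes, at 12.86, 11.61, 12.37, 12.81 and 10.83 in low stretch hypercapnia, against 10.85, 10.95, 11, 10.51 and 10.88 in non-ventilated lungs. Other genes among the largest falls were Lbh, a transcription cofactor (3.02-fold), the ubiquitin ligase gene Sh3rf2 (2.78-fold), the kinase gene Nuak1 (2.47-fold), Tnfsf10, the death ligand TRAIL (2.44-fold), and Ccn5, a matricellular protein of the CCN family (2.36-fold).

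Of 15 alveolar type 2 markers 2 fell and none rose, with a median of -0.04. These were Etv5, a transcription factor of type 2 cells (-0.59), and Lpcat1, an enzyme of surfactant phospholipid synthesis (-0.58), both with no overlap. Of 13 alveolar type 1 markers 6 fell, with a median of -0.14. That count was 1 without hypercapnia replicate 1 or non-ventilated replicate 3, and 3 without hypercapnia replicate 4 or non-ventilated replicate 2. Fibroblast and collagen genes fell in 5 of 17 cases, and the count was 2 or 3 without any 1 of hypercapnia replicates 1, 3 and 5 or of the 5 non-ventilated arrays. Tcf21, a transcription factor of lung fibroblasts, fell by 0.79. Col3a1, collagen III, fell by 0.51 (adjusted p 0.0321), a call lost in several of these fits. None of 18 motile cilia genes (1 at an unadjusted p under 0.05) and none of 10 cardiac muscle genes of the pulmonary veins (2) passed the limma test.

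Glucocorticoid receptor targets rose almost throughout. Fkbp5, a chaperone that damps the receptor it is induced by, read 11.69, 11.70, 11.82, 11.88 and 11.60 in low stretch hypercapnia, against 8.27, 8.52, 9.32, 10.01 and 9.53 in non-ventilated lungs. The ventilated animals were nearly identical and all far above the non-ventilated ones, which were spread over more than 1 log2 unit. The rise was 6.11-fold (log2 change 2.61 ± 0.18, SE, adjusted p 2.58e-12). Zbtb16, a zinc finger transcription factor, showed the same pattern, at 11.79 ± 0.14 in low stretch hypercapnia and 10.60 ± 0.64 in non-ventilated lungs. Pdk4, the kinase that shuts off pyruvate dehydrogenase, rose 3.47-fold and Tat, tyrosine aminotransferase, 3.2-fold. Of 21 targets 19 rose and none fell, with a median of 0.60, and 18 rose without hypercapnia replicate 1. The 2 that did not pass were Dusp1, a phosphatase of stress kinases (0.25), and Usp2 (0.08).

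**Figure D3:**
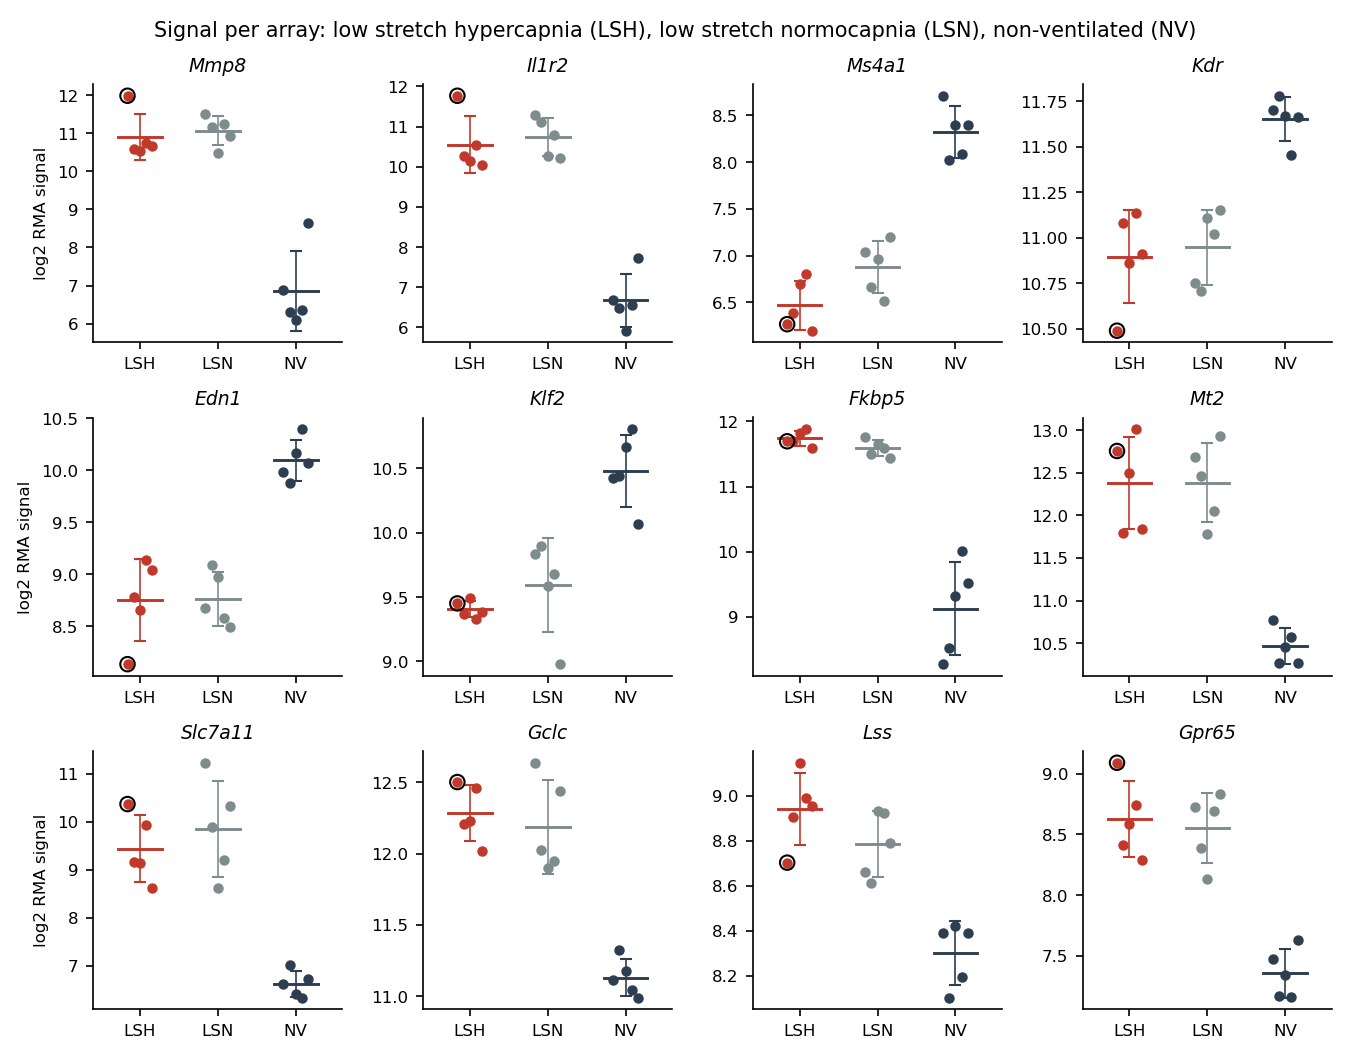
Deposited log2 signal (y axis) of 12 genes in each array of low stretch hypercapnia (LSH, red), low stretch normocapnia (LSN, grey) and non-ventilated lungs (NV, dark blue), with group means as lines and SD as bars, n = 5 each. LSH replicate 1 is circled. In all 12 genes the 5 LSH arrays lie on one side of every NV array.

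Metallothioneins, small proteins that bind zinc and other metals, are induced by both glucocorticoids and zinc. Mt2 read 12.75, 11.80, 12.50, 13.01 and 11.84 in low stretch hypercapnia, against 10.77, 10.27, 10.46, 10.57 and 10.27 in non-ventilated lungs, a 3.77-fold rise (adjusted p 6.84e-09). Mt1 read 12.58, 11.84, 12.17, 12.66 and 11.71 in low stretch hypercapnia, against 10.68, 10.82, 11.04, 10.87 and 10.59 in non-ventilated lungs, a 2.62-fold rise (adjusted p 6.9e-08). In both genes the same 3 hypercapnia arrays, replicates 1, 3 and 4, were higher than the other 2, and neither gene had overlap between groups. Mt3 (0.02) and Mt4 (-0.25) did not pass. The zinc importer gene Slc39a14, which inflammation induces in other tissues, rose 2.06-fold, the zinc exporter gene Slc30a4 1.23-fold, and the exporter gene Slc30a1 fell 1.24-fold. In all, 4 of 11 genes of the group rose and 1 fell.

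The 250 bases before the start of Mt1 and Mt2 are shown because both genes rose together and their promoters carry short metal response elements. Capitals mark the cores TGCACNC and TGCGCNC on either strand, which do not overlap here. In RefSeq (GRCm38.p6) the Mt2 window is chr8:94172368-94172617 and the Mt1 window chr8:94178839-94179088, both on the plus strand and printed 5′ to 3′.
Mt2: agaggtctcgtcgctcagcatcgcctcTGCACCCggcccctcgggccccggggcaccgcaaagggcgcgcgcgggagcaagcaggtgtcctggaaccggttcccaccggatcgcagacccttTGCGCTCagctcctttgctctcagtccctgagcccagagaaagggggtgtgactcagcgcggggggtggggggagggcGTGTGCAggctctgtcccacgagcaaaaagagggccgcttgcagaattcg
Mt1: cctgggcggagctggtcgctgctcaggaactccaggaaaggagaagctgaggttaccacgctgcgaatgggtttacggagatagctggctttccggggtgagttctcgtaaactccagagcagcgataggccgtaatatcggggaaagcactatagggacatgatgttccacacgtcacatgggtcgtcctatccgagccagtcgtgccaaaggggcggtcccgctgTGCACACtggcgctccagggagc
The core TGCACNC was found in 10.4% and TGCGCNC in 12.5% of all 32851 windows of the same length, so a match by itself is common.

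Genes of the NRF2 pathway, which senses oxidants and electrophiles and restores glutathione, formed a further group of rises. Of 21 genes 12 rose and 1 fell, with a median of 0.31, and the counts were the same without hypercapnia replicate 1. Slc7a11, the cystine importer that feeds glutathione synthesis, read 10.37, 9.16, 9.14, 9.92 and 8.61 in low stretch hypercapnia, against 6.63, 7.01, 6.41, 6.34 and 6.72 in non-ventilated lungs. Each ventilated animal was well above every non-ventilated one, and the rise was 7.06-fold (adjusted p 5.23e-08). Gclc, the catalytic subunit of the first enzyme of glutathione synthesis, rose 2.22-fold, to 12.28 ± 0.20 in low stretch hypercapnia against 11.13 ± 0.13 in non-ventilated lungs. Srxn1, sulfiredoxin, rose 2.59-fold, Txnrd1, thioredoxin reductase 1, 1.95-fold, the carbonyl reductase gene Cbr3 1.89-fold and Gsr, glutathione reductase, 1.88-fold. Cat, catalase, fell 1.22-fold with no overlap. Hmox1, heme oxygenase 1, rose 2.32-fold and Slc40a1, the iron exporter ferroportin, 2.05-fold, and of 14 heme and iron genes 4 rose and none fell.

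Slc7a11 is also a target of ATF4, the transcription factor that answers amino acid shortage and other stresses. Of 17 genes of that response 9 rose and none fell, with a median of 0.38, the same number without hypercapnia replicate 1. Slc7a5, a transporter of large neutral amino acids, rose 1.85-fold, Mthfd2, a mitochondrial folate enzyme, 1.66-fold, Sesn2, a leucine sensor, 1.62-fold and Psat1, of serine synthesis, 1.5-fold. Trib3, a pseudokinase, rose 1.34-fold. Asns, asparagine synthetase, rose 1.32-fold and was tight, at 9.70, 9.83, 9.82, 9.93 and 9.74 in low stretch hypercapnia, against 9.44, 9.36, 9.51, 9.32 and 9.39 in non-ventilated lungs. Endoplasmic reticulum chaperones, which misfolded protein induces, rose in 1 of 16 cases, close to the 7.99% of all genes, with a median of 0.0048. The gene that rose was Herpud1 (0.32, adjusted p 0.0835 without non-ventilated replicate 1).

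The windows before Slc7a11 and Asns are shown with the amino acid response core TGATGNAA in capitals on either strand. They are chr3:50443614-50443863 for Slc7a11 and chr6:7693210-7693459 for Asns in RefSeq (GRCm38.p6), both on the minus strand and printed 5′ to 3′ along the gene.
Slc7a11: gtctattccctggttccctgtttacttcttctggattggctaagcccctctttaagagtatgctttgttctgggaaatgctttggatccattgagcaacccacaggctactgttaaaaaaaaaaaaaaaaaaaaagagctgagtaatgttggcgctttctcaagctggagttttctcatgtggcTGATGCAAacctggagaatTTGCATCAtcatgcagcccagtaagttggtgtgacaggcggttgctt
Asns: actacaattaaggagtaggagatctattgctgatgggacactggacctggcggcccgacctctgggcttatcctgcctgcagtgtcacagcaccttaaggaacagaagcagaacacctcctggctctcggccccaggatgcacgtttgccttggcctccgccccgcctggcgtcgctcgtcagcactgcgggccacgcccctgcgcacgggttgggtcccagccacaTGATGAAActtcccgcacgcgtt
The core was found in 3.45% of all windows, in 5 of the 16 genes of the ATF4 list that had a window, and in 2 of the 8 such genes that rose.

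The mevalonate pathway, which makes cholesterol and isoprenoids from acetyl-CoA, rose at 10 of its 19 measured genes. Pmvk, phosphomevalonate kinase, read 10.50, 9.93, 10.27, 11.04 and 9.61 in low stretch hypercapnia, against 8.44, 8.38, 8.91, 8.58 and 8.58 in non-ventilated lungs. All ventilated animals were higher, and the rise of 3.23-fold (log2 change 1.69 ± 0.19, SE, adjusted p 6.87e-08) was by far the largest of the pathway. None of the 19 fell, the median was 0.27, and 9 rose without hypercapnia replicate 1. Among other early steps, Hmgcs1, the HMG-CoA synthase, was higher at 0.30 (adjusted p 0.0271), Mvd at 0.36, Idi1 at 0.35 (adjusted p 0.038) and Fdps, farnesyl diphosphate synthase, at 0.27. Of these, Mvd kept its call whichever array was left out. Mvk, the kinase just before Pmvk, did not pass (-0.20, adjusted p 0.0635). Among the later, cholesterol-specific steps, Fdft1, squalene synthase, rose by 0.40, Sqle, squalene epoxidase, by 0.48, Msmo1 by 0.53 and Cyp51, lanosterol demethylase, by 0.61. Lss, which closes the sterol rings, rose by 0.64, at 8.70, 8.91, 9.15, 8.99 and 8.95 in low stretch hypercapnia, against 8.39, 8.10, 8.42, 8.19 and 8.39 in non-ventilated lungs, with hypercapnia replicate 1 the lowest of its group. The 9 genes of the list that did not pass, early and later steps among them, lay between -0.20 and 0.23.

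Hmgcs1 is a classic target of SREBP2, the sterol-sensing transcription factor. Its window, chr13:119690101-119690350 on the plus strand (RefSeq, GRCm38.p6), is shown with the sterol response core TCACNCCAC in capitals.
Hmgcs1: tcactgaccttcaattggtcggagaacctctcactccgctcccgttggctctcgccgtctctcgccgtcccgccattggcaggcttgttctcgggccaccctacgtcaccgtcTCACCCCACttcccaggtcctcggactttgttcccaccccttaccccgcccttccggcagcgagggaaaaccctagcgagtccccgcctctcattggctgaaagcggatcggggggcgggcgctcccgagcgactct
The core was found on either strand in 1.05% of all windows and, among the 15 genes of the pathway with a window, in 1. These letters are not in the 2 windows of Pmvk.

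**Figure D4:**
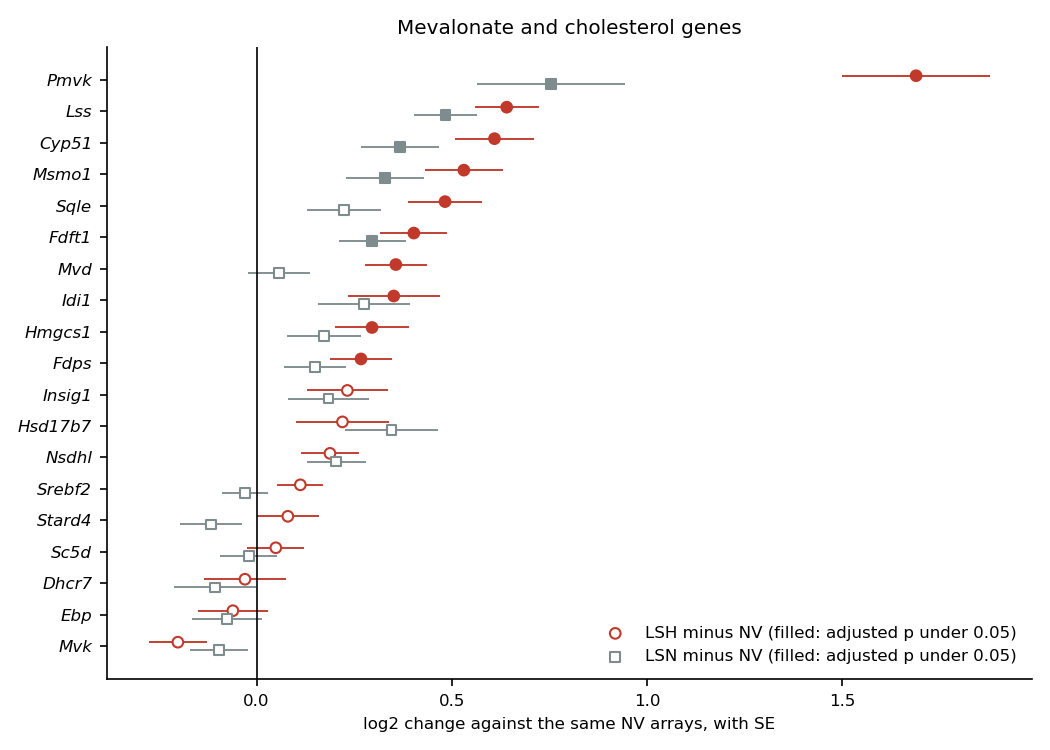
Log2 change (x axis) with SE of the 19 measured mevalonate and cholesterol genes in low stretch hypercapnia (LSH, red circles) and low stretch normocapnia (LSN, grey squares), each against the same 5 non-ventilated arrays (NV). Filled symbols passed the limma test, as 11.8% of all genes did for LSN. Pmvk stands out at 1.69 in LSH and 0.76 in LSN, and 10 genes are filled for LSH.

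Genes of fasting and fat oxidation rose in 8 of 18 cases and none fell, with a median of 0.16. The count was 5 without hypercapnia replicate 4, or without non-ventilated replicate 1 or 2. Angptl4, an inhibitor of lipoprotein lipase, rose 2.03-fold, and the lipase genes Pnpla2 and Lipe, which release stored fat, 1.7-fold and 1.6-fold. The largest rises of this list, Pdk4 and Angptl4, were also counted among the glucocorticoid receptor targets. Ttpa, which encodes the alpha-tocopherol (vitamin E) transfer protein, rose 1.91-fold, to 7.23 ± 0.16 in low stretch hypercapnia against 6.30 ± 0.15 in non-ventilated lungs, with no overlap.

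Hypoxia and glycolysis genes rose in 8 of 21 cases and fell in 3, with a median of 0.10. Slc2a1, the glucose transporter GLUT1, rose 1.87-fold, Bnip3, a mitophagy receptor, 1.68-fold and Hk2, hexokinase 2, 1.57-fold. Vegfa, the growth factor of endothelium and a target of hypoxia-inducible factors, fell 1.24-fold, and Ankrd37, another such target, 1.2-fold, both with no overlap. Of 15 p53 targets 8 rose and 1 fell, with the death receptor gene Fas up 2.07-fold, Plk3 1.97-fold, and Gadd45a and Gadd45g, stress sensors of growth arrest, 1.91-fold each. Plk2 fell 1.63-fold.

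Of 25 immediate-early genes 6 rose and none fell, with a median of 0.24. The largest rises were in Maff (2.44-fold) and Fosl2 (2.07-fold), small MAF and AP-1 factors, and Junb and Myc rose by 0.62 and 0.59. Without hypercapnia replicate 1 the Junb change was 0.50 and did not pass (adjusted p 0.0549). Fos did not pass (0.52, adjusted p 0.15). In the EGF receptor group 4 of 17 genes rose and none fell. Egfr itself rose 1.6-fold, and Adam17, the sheddase that releases its ligands, did not pass (-0.09). Alox5ap, the activating protein of 5-lipoxygenase, rose 2.07-fold while Alox5, the lipoxygenase that starts leukotriene synthesis, did not pass (0.24, adjusted p 0.124). Coagulation genes rose in 4 of 14 cases and fell in 2: F10, factor X, rose 2.58-fold, F3, tissue factor, 1.61-fold and Plaur, the urokinase receptor, 1.56-fold, while Plau, urokinase, fell 1.59-fold. Plaur did not pass without hypercapnia replicate 4 (adjusted p 0.0614). Lox, the enzyme that crosslinks collagen and elastin, rose 2.06-fold with no overlap.

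Of 17 core clock genes 4 were higher and 1 lower. Nfil3, a repressor that opposes DBP, rose 2.37-fold with no overlap. Dbp read 9.22, 7.87, 9.25, 8.13 and 9.50 in low stretch hypercapnia, against 9.45, 10.44, 10.61, 10.40 and 8.58 in non-ventilated lungs. Both groups were spread over more than 1 log2 unit and overlapped, and the change of -1.10 did not pass (adjusted p 0.0683). Arntl, the positive arm of the clock, was as scattered, at 7.11 to 8.92 in low stretch hypercapnia and 6.52 to 8.81 in non-ventilated lungs. The count higher was 2 without hypercapnia replicate 4 or 5. The labels give no time of day, and its part in these values was not tested.

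Genes that handle CO2, bicarbonate and protons were measured in several lists. Of 16 carbonic anhydrases, which interconvert CO2 and bicarbonate, 1 rose and 1 fell, with a median of 0.02. That is close to the shares of all genes, 7.99% higher and 7.02% lower. The fall was in Car8 (-0.50, adjusted p 8.78e-06), a member without enzyme activity, and the rise in Car15 (0.24, adjusted p 0.0063). Car2 (-0.24) and Car4 (-0.18), the cytosolic enzyme and the one on capillary endothelium, did not pass, nor did Car3 (-0.70, adjusted p 0.133). Among 14 bicarbonate and anion exchangers 1 rose and 1 fell, again close to the shares of all genes. These were Slc4a8 (0.18) and Slc4a5 (-0.29), and neither passed without hypercapnia replicate 1, 3 or 4. Of 10 sodium-proton exchanger genes and partners 1 rose, Chp1 (0.29), a cofactor of these exchangers, and 2 fell, Slc9a7 (-0.59) and Slc9a8 (-0.20), both exchangers of the Golgi apparatus. Slc9a8 did not pass without hypercapnia replicate 3.

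Among 12 proton and bicarbonate sensors 1 rose and 1 fell, close to the shares of all genes. The gene that rose moved strongly. Gpr65, a proton-activated receptor of leukocytes, read 9.09, 8.41, 8.59, 8.74 and 8.29 in low stretch hypercapnia, against 7.48, 7.17, 7.35, 7.16 and 7.63 in non-ventilated lungs. Every ventilated animal was higher, and the rise was 2.41-fold (adjusted p 2.17e-05). In low stretch normocapnia it averaged 8.56 ± 0.29, and the difference between hypercapnia and normocapnia was 0.07, with a 95% interval of -0.34 to 0.48. Neutrophil markers rose in the same arrays, and their part in this was not tested. The related receptor genes Gpr4 (-0.02) and Gpr132 (0.22) did not pass. Kcnk3, an acid-sensitive potassium channel, fell slightly (-0.23, adjusted p 0.0321), a call lost without hypercapnia replicate 1, 2 or 3 or non-ventilated replicate 1, 3 or 4. Of 10 genes of alveolar fluid clearance 3 rose and 1 fell, with the largest rise in Aqp9 (0.97). Nedd4l, the ubiquitin ligase that removes the sodium channel ENaC, rose 1.39-fold and Atp1b1, a sodium pump subunit, 1.22-fold, both with no overlap, while the water channel gene Aqp4 fell 1.31-fold.

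Several housekeeping groups stayed at or below the share of all genes. None of 22 respiratory chain genes passed the limma test (1 at an unadjusted p under 0.05), with changes from -0.14 to 0.0063. Of 23 ribosome biogenesis genes 1 fell, Dkc1. Of 20 mitochondrial ribosomal proteins 1 fell, Mrpl27, a call lost without hypercapnia replicate 1 or 3 or non-ventilated replicate 1, 3 or 5. Of 15 heat shock genes 1 rose, the co-chaperone Bag3 (0.27), and Hspa1a, the inducible HSP70, did not pass (0.94, adjusted p 0.23). Of 23 cell cycle genes 1 rose and 2 fell, and none passed without hypercapnia replicate 1.

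The difference with added CO2 was read from low stretch hypercapnia against low stretch normocapnia, with the same ventilator settings in both. Of 19938 genes 23 (0.115%) passed, 8 (0.0401%) higher and 15 (0.0752%) lower in hypercapnia, and 1839 had an unadjusted p under 0.05. A limma fit to those 10 arrays alone called none, with 1594 at an unadjusted p under 0.05. Of the 23 genes 14 also passed against the non-ventilated lungs. The 10 with the smallest p among those are described here, with Ramp3 and Ints7 from the gene lists. The number called ranged from 3 to 28 when 1 array was left out, with 7, 4, 5 and 14 calls without hypercapnia replicates 1, 3, 4 and 5 and 4, 6 and 3 without normocapnia replicates 3, 4 and 5.

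Pmvk was the largest of these differences. It read 10.50, 9.93, 10.27, 11.04 and 9.61 in hypercapnia, against 9.42, 9.81, 9.09, 9.21 and 9.13 in normocapnia. In hypercapnia 4 of 5 arrays lay above every normocapnia array, and the difference was 0.93 ± 0.19 (SE, adjusted p 0.0308). That call was lost without hypercapnia replicate 1, 3 or 4, without normocapnia replicate 3, 4 or 5, and with the replicate number as a block (adjusted p 0.0715). Against the non-ventilated mean it was 1.69 higher in hypercapnia and 0.76 higher in normocapnia. No other mevalonate gene passed between the low stretch groups. Mvd was 0.36 above the non-ventilated mean in hypercapnia and 0.06 above it in normocapnia, a difference of 0.30 (95% interval 0.14 to 0.46) that did not pass (adjusted p 0.111). Lss differed by 0.16, with an interval of -0.01 to 0.32.

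In 5 of the genes described all hypercapnia arrays lay above every array of both other groups. These were picked because they passed the limma tests on the same arrays. Their separation is therefore no separate support, and its share over all genes was not counted. Ramp3 read 7.70, 7.75, 7.90, 8.22 and 7.77 in hypercapnia, against 6.97, 7.27, 6.97, 7.28 and 7.26 in normocapnia, a difference of 0.72 (adjusted p 0.0396). The non-ventilated arrays averaged 7.18 ± 0.20. Ccr8, a chemokine receptor of T cell subsets, averaged 6.13 ± 0.23 in hypercapnia, 5.50 ± 0.22 in normocapnia and 5.65 ± 0.07 in non-ventilated lungs (difference 0.63, adjusted p 0.0299). Erf, an ETS-family repressor that ERK kinases control, averaged 8.13 ± 0.09 in hypercapnia, 7.70 ± 0.07 in normocapnia and 7.69 ± 0.05 in non-ventilated lungs (difference 0.43, adjusted p 0.00364). Zbtb7b, a transcription factor known from helper T cell fate, averaged 9.08 ± 0.10 in hypercapnia, 8.78 ± 0.09 in normocapnia and 8.55 ± 0.07 in non-ventilated lungs. Fbxo44, a ubiquitin ligase subunit, averaged 7.65 ± 0.10 in hypercapnia, 7.29 ± 0.14 in normocapnia and 7.17 ± 0.09 in non-ventilated lungs.

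In 6 genes hypercapnia was lower. Ints7, a subunit of the Integrator complex that processes small nuclear RNAs, had the smallest p, at 9.20, 9.29, 9.14, 9.29 and 9.13 in hypercapnia, against 9.48, 9.66, 9.79, 9.75 and 9.60 in normocapnia. The groups did not overlap, and the difference was -0.44 ± 0.06 (SE, adjusted p 0.00128). The non-ventilated arrays lay between them at 9.32 to 9.46, and hypercapnia did not pass against those (-0.18, adjusted p 0.0618). Normocapnia did pass against the non-ventilated arrays in the same limma fit, 0.27 higher (adjusted p 0.00443). Ankrd37 differed by -0.38 between hypercapnia and normocapnia and Fastkd2, a mitochondrial RNA-binding protein, by -0.42. Slc9a8 differed by -0.29, Gabpb2, a subunit of the ETS factor GABP, by -0.27, and Snapc5, a subunit of the small nuclear RNA activating complex, by -0.25. In these 5 genes all hypercapnia arrays lay below every normocapnia array, and in all but Fastkd2 also below every non-ventilated array. They too were picked by the tests on these arrays, so this is no separate support. Among the 12 genes described, Erf and Ints7 alone passed whichever array was left out.

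A selection that also asks for a change against non-ventilated lungs leaves out genes in which normocapnia stood apart from both other groups. For 3 of these, named after their values were seen, hypercapnia did not pass against non-ventilated lungs. Capn5, a calpain protease, averaged 8.09 ± 0.04 in hypercapnia, 7.67 ± 0.11 in normocapnia and 8.05 ± 0.10 in non-ventilated lungs (SD, n = 5 each), a difference between the low stretch groups of 0.42 (adjusted p 0.0127) with the third smallest p of all genes. Without normocapnia replicate 5 it did not pass. Tubb2b, a beta-tubulin, averaged 6.81 ± 0.26 in hypercapnia, 6.36 ± 0.08 in normocapnia and 6.77 ± 0.06 in non-ventilated lungs (difference 0.45, adjusted p 0.0396), a call lost when any 1 of 8 arrays was left out. Ubxn8 averaged 8.33 ± 0.08 in hypercapnia, 8.64 ± 0.09 in normocapnia and 8.27 ± 0.08 in non-ventilated lungs (difference -0.31, adjusted p 0.0299), a call lost without hypercapnia replicate 1 or 4 or normocapnia replicate 3, 4 or 5.

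**Figure D5:**
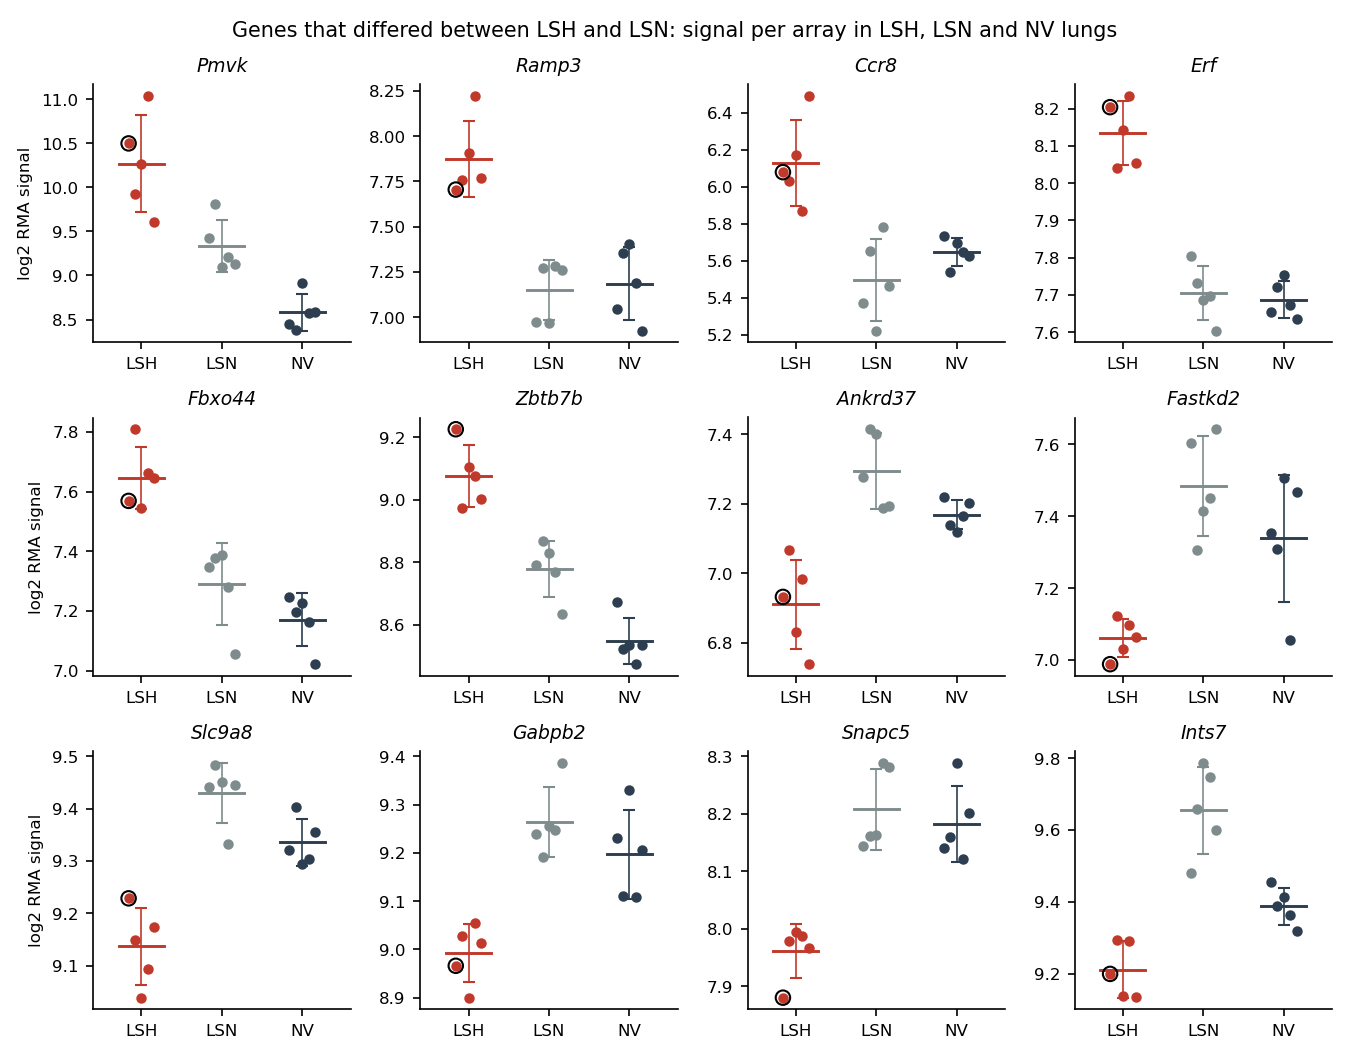
Deposited log2 signal (y axis) of 12 genes that differed between low stretch hypercapnia (LSH, red) and low stretch normocapnia (LSN, grey), with non-ventilated lungs (NV, dark blue) beside them, as 5 arrays per group with means and SD. LSH replicate 1 is circled. The 6 genes from Pmvk to Zbtb7b are higher and the 6 from Ankrd37 to Ints7 lower in LSH than in LSN, and Pmvk alone has an LSH array within the LSN range.

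The main groups of the comparison with spontaneous breathing can be set beside normocapnia, although both contrasts share the same non-ventilated arrays. Neutrophil markers had a median change of 2.27 in hypercapnia and 2.91 in normocapnia, and the median of the members' own differences, hypercapnia minus normocapnia, was -0.22. B cell markers had a median change of -0.95 in hypercapnia and -0.91 in normocapnia, with a median difference of -0.11. Mmp8 differed by -0.16 between hypercapnia and normocapnia (95% interval -0.84 to 0.52), Kdr by -0.05 (-0.25 to 0.15) and Fkbp5 by 0.15 (-0.21 to 0.51). Ms4a1 was 0.41 lower in hypercapnia than in normocapnia (interval -0.72 to -0.09), and Ncr1 0.68 lower (-1.09 to -0.27), and neither passed (adjusted p 0.356 and 0.183). A p above the threshold does not show that these genes are equal in the 2 low stretch groups.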

How the data were processed

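The authors hybridised lung RNA of 35 mice to Affymetrix arrays, 1 animal each, and deposited log2 signals per probe set. The submitters' processing notes name RMA, Affymetrix Expression Console and Partek, without their roles. Per the labels, animals were assigned at random and RNA was not pooled. No depth applies to arrays, and the number of arrays limits the precision.

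Symbols came from the platform annotation: of 35557 probe sets 21789 had 1 symbol, 1621 several and 12147 none. For the 999 genes with several probe sets the one with the highest mean was used, giving 19938 genes. limma 3.58.1 (R 4.3.3) was fitted to all 35 arrays with a mean per group, and p-values were two-sided and adjusted by Benjamini-Hochberg over all genes. The procedure was tested on simulated data, drawn independently for each gene with the same spread in all groups. That simulation did not cover genes that move together or single arrays that stand apart. Alternatives were the arrays in the fit, replicate block, array weights, variance prior, level filter, probe set choice, centring, second normalization, array spread and each array left out.

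Members and gene lists were chosen with earlier results of these data known. Named genes were the 15 largest rises and 15 largest falls without predicted genes and receptor segments. Also named were up to 6 members per list that passed and up to 3 that did not. Some members of short lists were left unnamed. Added to these were 10 genes of the contrast between low stretch groups, and Ttpa, Adam17 and Alox5. Aqp9 was named last, after its values were seen, and the counts of named genes leave it out. Ampd3, Sftpc, Ager, Asns, Mvd, Idi1, Fdps, Hmgcs1, Lyve1, Notch1, Cat, Vegfa, Dkc1, Mrpl27, Capn5, Tubb2b and Ubxn8 were named after their values were seen. Promoter windows of 250 bases came from RefSeq (GRCm38.p6).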

Additional observations from a re-analysis of the deposited data

Results flagged for a closer look

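Single arrays far from the other 4 of their group were looked for by Dixon's test in the genes named here, where chance alone marks about 1 in 20 groups. Of 459 groups of 5 arrays 55 were marked, 26 of them by low stretch hypercapnia replicate 1. Over all genes, 5.98% of low stretch hypercapnia groups and 5.09% of non-ventilated groups were marked. All values are deposited log2 signals of the array that stood apart.

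Low stretch hypercapnia replicate 1 was the highest of its group in Mmp8 (11.98), Il1r2 (11.77), Retnlg (12.53), Clec4d (11.15), Ifitm6 (12), Slfn4 (12.19), Il1f9 (10.97), Dhrs9 (9.89), Ngp (9.97), Tlr13 (10.31), Tlr6 (8.37), Il1b (9.85), Cxcl2 (8.63), Cxcl10 (9.50), Ccl3 (9.20), Casp4 (9.73), Il18rap (9.84), Il4ra (12.21), Nfkbia (11.82), Oas2 (9.61), Gsr (11.47) and Alox5ap (10.85). Most of these are genes of neutrophils and of the inflammatory groups. The same array was the lowest in Snapc5 (7.88), Sox18 (8.30), Smad6 (8.74) and Zbtb16 (11.54). Replicate 2 was the lowest in Lyve1 (12.24) and Cbr3 (8.79), and replicate 3 the highest in Ciita (7.69), Mt3 (8.33) and Plau (6.63). In low stretch normocapnia, replicate 4 was the lowest in Slc9a8 (9.33).

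Among non-ventilated arrays, replicate 5 was the highest in Ccr1 (7.95), Dhrs9 (7.65), F13a1 (9.80), Lipe (9.37) and F10 (8.13) and the lowest in Slc7a5 (7.57). Replicate 1 was the highest in Cd79a (9.22), Cr2 (7.73), Lrg1 (9.45), Cd79b (9.29) and Slc9a7 (8.25) and the lowest in Nos3 (7.44), Id4 (8.57) and Bnip3 (9.83). Replicate 2 was the lowest in Serpina3n (10.68) and Msmo1 (10.90). Replicate 3 was the highest in Il33 (10.61), Vpreb3 (8.62) and Fosl2 (8.70) and the lowest in Col3a1 (10.64). Replicate 4 was the lowest in Nuak1 (7.93), Icam2 (9.29) and Hmox1 (8.49).

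The 2 low stretch groups, which differ in inspired CO2, differed in 15 named genes by the limma test of low stretch hypercapnia minus low stretch normocapnia. Hypercapnia was higher, on the log2 scale, in Pmvk (0.93), Ramp3 (0.72), Ccr8 (0.63), Tubb2b (0.45), Erf (0.43), Capn5 (0.42), Fbxo44 (0.36) and Zbtb7b (0.30). It was lower in Ints7 (-0.44), Fastkd2 (-0.42), Ankrd37 (-0.38), Ubxn8 (-0.31), Slc9a8 (-0.29), Gabpb2 (-0.27) and Snapc5 (-0.25). None of the 15 passed when only the 10 low stretch arrays were fitted.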

How the results depend on the processing

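Under 10 planned settings other than leaving out arrays, the number of genes changed in low stretch hypercapnia against non-ventilated lungs stayed within 1.5 times of 2993, except that a fit to only the arrays compared called 1429. Leaving out 1 array at a time gave 2170 to 3042. Without hypercapnia replicate 1 and non-ventilated replicate 4 together, a choice made after seeing the data, 2107 passed. For low stretch hypercapnia against low stretch normocapnia the 23 calls moved more: 0 with only the arrays compared, 78 with genes above the median level (fewer genes tested), 64 after a second quantile normalization and 100 with array spread as a covariate, and 3 to 28 when 1 array was left out. The causes were not tested. The replicate block gave 3017 calls against non-ventilated lungs and 16 against normocapnia, where Pmvk, Fastkd2, Gabpb2 and Snapc5 lost their call. Arrays of the same number did not deviate together (r from -0.33 to 0.10 for hypercapnia and non-ventilated pairs and from -0.12 to 0.24 for hypercapnia and normocapnia pairs), and no array correlated best with its own number, so the numbers were not taken as pairs.

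Of 181 named genes that passed against non-ventilated lungs, 142 passed in every setting and 39 lost their call in at least 1. Of 41 that did not pass, 14 passed in some setting. No called gene changed direction in any setting run. With 5 arrays a group, small changes are at the limit of what can be called, and probe set signals near the lower end of the range, as for Il6, bound a change only weakly.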
